A study of Homo sapiens with 12 samples.

Results

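The values described here are the interaction of erastin and tubacin in HCC38 cells, an established triple-negative breast cancer line. For each gene, the change on adding tubacin to erastin was set against the change on adding tubacin to control medium, and the difference between these changes is the interaction. All 12 samples of the series enter this contrast, and all 22392 genes that were represented by a probe set with a single gene symbol were tested. The 4 groups of 3 samples each were a DMSO control (Con), 5 µM erastin (E), 5 µM tubacin (T), and 5 µM erastin with 5 µM tubacin (E+T). The sample labels give a treatment of 18 h before RNA was collected, while the study's methods give a longer one for the arrays. All groups are the same unmodified line, so each result concerns 1 line at 1 dose of each drug and 1 time. The source labels carry a line number that climbs from sample to sample, whereas titles and cell line entries read HCC38 throughout, and HCC38 was taken as the line.

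Erastin blocks the cystine carrier that contains SLC7A11, which starves cells of cysteine and glutathione and can start ferroptosis, a death by lipid peroxidation. Amino acid shortage acts through the transcription factor ATF4, and oxidised or electrophile-modified KEAP1 releases NRF2, the activator of antioxidant genes. Tubacin inhibits HDAC6, a cytoplasmic deacetylase whose substrates include tubulin and HSP90. In a 2 by 2 design of this kind, a gene whose response to both drugs is the sum of its single responses has an interaction of 0 on the log2 scale, which is a product of folds on the linear scale.

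RNA was measured on Human Gene 2.1 ST arrays, and the authors deposited them as log2 values after RMA. Array medians ran from 3.06 to 3.12. Pairs of arrays correlated at 0.982 to 0.988 within groups and at 0.971 to 0.986 across them, so that the 2 ranges overlapped. Of 6 epithelial markers, EPCAM, KRT19 and CDH1 were high in all groups (means from 10.44 to 10.47, 10.42 to 10.64 and 10.49 to 11.03). KRT18 (5.98 to 6.44) and KRT8 (4.44 to 5.27) were lower, and KRT7 lay between. The leukocyte markers PTPRC, CD3E and LYZ did not exceed a group mean of 2.91. CD14 lay between 4.55 and 5.60, a range that overlapped that of KRT8. Of 5 fibroblast markers, COL1A1 was the highest (8.49 to 9.26), while LUM and DCN were below the array medians. The markers therefore did not all point to an epithelial line. No source states whether the 3 samples of a group were cultured separately, and p-values here therefore cover sample to sample spread that may be technical. Changes below are on the log2 scale, each with its standard error (SE) from a limma fit of the 4 group means, n = 3 in each group, and a gene is said to be called at a Benjamini-Hochberg adjusted p under 0.05 over all genes tested. In RNA from bulk cultures, fewer cells of a type and less RNA per cell cannot be told apart.

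An interaction was called for 3369 genes, 15% of those tested. It was positive for 1389 genes (6.2%) and negative for 1980 (8.84%), and it reached 2-fold for 325 (1.45%) and 381 (1.7%) genes. With no adjustment, 6099 genes (27.2%) had p under 0.05. The single drugs called fewer genes than both together. Erastin alone called 1869 genes (8.35%), tubacin alone 52 (0.232%) and E+T 6956 (31.1%). The positive share of called interactions was 41.2% in the values as deposited, 50.5% after a further cyclic loess normalization and 54.4% after scaling to 5 reference genes, so this balance depended on the scaling.

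The called interactions were sorted by what each drug did alone. In the largest classes E+T moved a gene further than the sum of both single changes, upward for 1044 genes and downward for 1510. Neither drug alone called 908 of these rises and 1290 of these falls. Their median changes were 0.77 and -0.76 with E+T, against 0.04 and -0.05 with erastin and 0.00 and -0.01 with tubacin. A reversal, in which a gene called in 1 direction with a single drug was called in the opposite direction with both, was found for 122 genes, of which 68 turned to a fall and 54 to a rise. In a further 319 genes the second drug opposed a called single response, but E+T was not called in the opposite direction against control. These 184 rises and 135 falls are named antagonised here. For 25 of the rises and 23 of the falls, adding erastin to tubacin was called opposite to erastin alone. Reversals and antagonisms depended on the settings. They numbered 51 to 107 and 192 to 279 when 1 sample was left out, and 32 to 303 and 106 to 504 over the other alternatives. The remaining 374 interactions had neither a called single change to oppose nor a called E+T change in their direction.

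**Figure D1:**
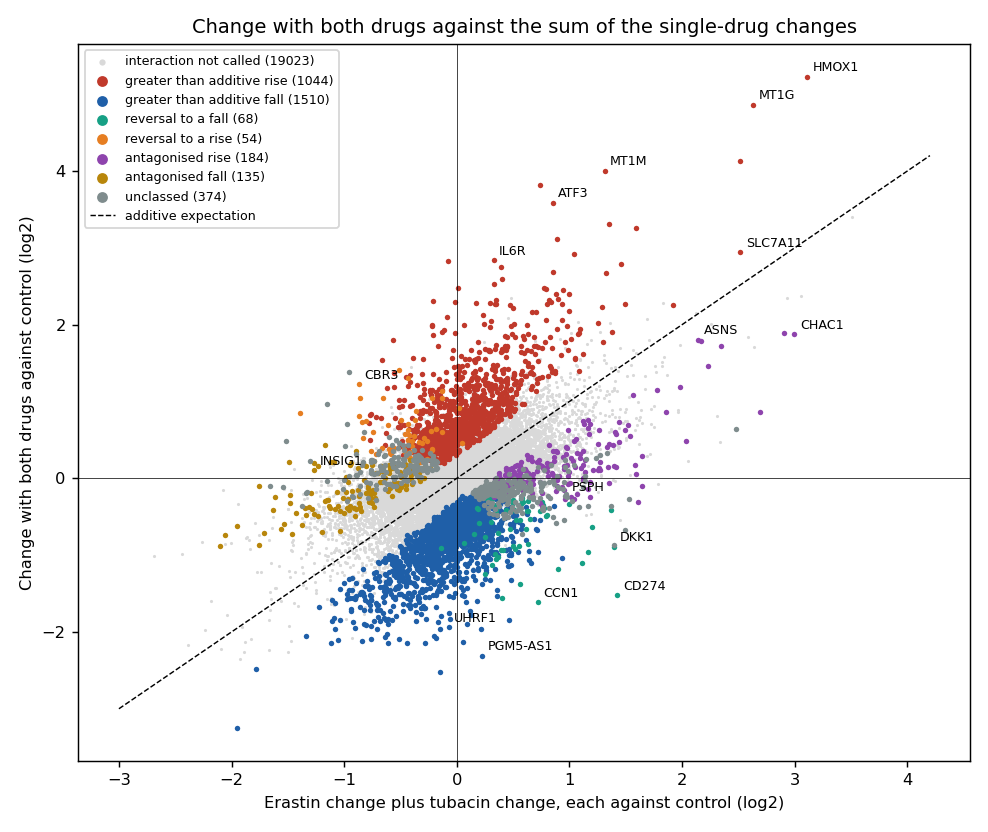
Each point is 1 of 22392 genes, placed by the sum of its erastin and tubacin changes against control (x axis, log2) and by its E+T change against control (y axis, log2); the dashed line marks an interaction of 0 and colours mark the 7 classes. The 1044 greater than additive rises lie above the line and the 1510 greater than additive falls below it, most of them close to 0 on the x axis, and CD274 and DKK1 are positive on the x axis and negative on the y axis.

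A single response and the interaction share samples. A control sample that reads high lowers both single-drug changes and raises the interaction, so opposition between them is in part built into the contrast. The erastin response was therefore also measured in samples that play no part in it, as E+T against tubacin. Erastin alone raised 882 genes (3.94% of all), of which 478 were raised again on adding erastin to tubacin, 86 fell and 318 were not called. Of the 987 genes that fell with erastin alone (4.41%), 634 fell again, 68 rose and 285 were not called. Across all genes, adding erastin to tubacin called 12.3% upward and 15.9% downward.

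Metallothioneins, the small cysteine-rich proteins that bind zinc and copper, had the highest median interaction of the lists examined. A positive interaction was called for 6 of the 10 measured genes and a negative one for 0, with a median of 1.20 against 0.00 over all genes. The values of MT1M were 6.71, 7.0 and 6.67 in control, 8.38, 8.41 and 8.67 with erastin, 6.61, 6.41 and 6.22 with tubacin, and 10.74, 10.80 and 10.84 with E+T. All 3 E+T samples lay above the other 9, and the tubacin samples lay below those of control. Erastin raised MT1M by 1.69 ± 0.13, tubacin changed it by -0.38 ± 0.13 (adjusted p = 0.337), and E+T raised it by 4.0 ± 0.13, 16-fold, which left an interaction of 2.69 ± 0.18 (adjusted p = 1.37e-05). MT1G had an E+T change of 4.86 ± 0.23 and an interaction of 2.23 ± 0.33 (adjusted p = 0.00111). MT1H, the gene with the largest interaction among those named by rule, was dim without the combination, at 3.08, 2.23 and 1.70 in control, 4.30, 2.71 and 3.10 with erastin, 1.92, 1.98 and 2.23 with tubacin, and 6.10, 5.95 and 6.43 with E+T. Its interaction was 3.09 ± 0.57 (adjusted p = 0.00435). MT1E, MT1F and MT1X followed with interactions of 1.47, 1.33 and 1.07, while MT1B, MT3 and MT4 were not called. MT2A had an interaction of 0.32 with adjusted p = 0.0827, called under 5 alternatives, and its E+T samples lay above the other 9. The MT1 genes are near-identical copies on chromosome 16, and how far their probe sets read each other's RNA was not tested.

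Zinc induces metallothioneins through the factor MTF1, which binds metal response elements. The 250 bases before the start of MT1H and of MT2A are shown because both carry the core letters of that element and MT1H had the largest interaction of the list. Capitals mark every match to TGCNCNC on either strand.
MT1H, chr16:56669564-56669813, plus strand, GRCh38.p14: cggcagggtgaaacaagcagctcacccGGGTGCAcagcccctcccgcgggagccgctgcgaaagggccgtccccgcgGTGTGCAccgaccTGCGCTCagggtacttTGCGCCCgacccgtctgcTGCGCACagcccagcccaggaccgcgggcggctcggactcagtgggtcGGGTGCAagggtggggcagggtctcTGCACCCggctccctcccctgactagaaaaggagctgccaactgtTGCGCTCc
MT2A, chr16:56608334-56608583, plus strand, GRCh38.p14: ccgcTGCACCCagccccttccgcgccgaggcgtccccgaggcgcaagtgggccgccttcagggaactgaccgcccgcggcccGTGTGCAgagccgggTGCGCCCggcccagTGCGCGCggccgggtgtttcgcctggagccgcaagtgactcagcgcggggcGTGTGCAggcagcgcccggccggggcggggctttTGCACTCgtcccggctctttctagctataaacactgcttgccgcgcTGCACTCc
MT1H held 8 matches and MT2A held 7, and overlapping matches are merged in the print. A match was present in 48.4% of the 27305 promoters of the RefSeq table (GRCh38.p14) and at least 3 matches in 5.74%. All 5 metallothioneins that the table holds had at least 1. Among greater than additive rises the share with a match was 56.6% of 845 promoters, and among greater than additive falls 57.7% of 1265. The string therefore did not separate rises from falls.

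Of the SLC30 zinc exporters, 3 of 10 measured genes had a called interaction, all positive (background 6.2%). With E+T 2 of the 10 were called higher and 2 lower against control (background 14% and 17.1%). SLC30A1, the exporter of the plasma membrane, rose by 0.62 ± 0.07 with erastin and by 1.66 ± 0.07 with E+T, an interaction of 1.0 ± 0.09 (adjusted p = 8.44e-05). SLC30A2, which loads zinc into vesicles, went from a mean of 3.62 in control and 4.84 with erastin to 6.93 with E+T, an interaction of 1.96 ± 0.24 (adjusted p = 0.000396). SLC30A4 had a called interaction of 0.44 but did not rise. It changed by -0.27 with erastin, -0.45 with tubacin and -0.28 with E+T, so E+T lowered it less than the sum. Its interaction lost its call under 13 of the alternatives. Among the 14 SLC39 importers, 0 had a called positive and 1 a called negative interaction (background 6.2% and 8.84%). Against control, E+T called 1 of the 14 higher and 3 lower (background 14% and 17.1%).

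NRF2 target genes rose with E+T in 20 of 24 measured cases and with erastin alone in 10, against 14% and 3.94% of all genes. A positive interaction was called for 14 of the 24 (background 6.2%) and a negative one for 0, with a median of 0.66. HMOX1, the enzyme that breaks down haem, was at 6.23, 5.94 and 6.26 in control, 9.14, 9.11 and 9.03 with erastin, 6.37, 6.23 and 6.30 with tubacin, and 11.40, 11.36 and 11.36 with E+T. The E+T samples lay above all others, with no overlap between E+T, erastin and the remaining groups. E+T raised HMOX1 37.5-fold (5.23 ± 0.09) against an erastin change of 2.95 ± 0.09, and its interaction was 2.12 ± 0.13 (adjusted p = 9.9e-06). OSGIN1, a growth inhibitor induced by oxidative stress, changed by 0.38 ± 0.16 with erastin (adjusted p = 0.197) and by 2.59 ± 0.16 with E+T, an interaction of 2.20. Interactions above 1 were also called for SRXN1, which repairs over-oxidised peroxiredoxins (1.36), BLVRB, a biliverdin reductase (1.26), the catalytic and modifier subunits of glutamate-cysteine ligase, GCLC (1.16) and GCLM (1.15), and the NRF2 partner MAFG (1.05). NQO1 did not follow them, with 0.57 ± 0.07 for E+T and an interaction of 0.12 ± 0.10 (adjusted p = 0.493). SLC7A11 itself, the target of erastin, rose by 2.94 ± 0.07 with E+T and by 2.27 ± 0.07 with erastin. The core letters of the antioxidant response element, TGACNNNGC, were in 4 of the 19 list promoters available and in 11% of all promoters, and the 250 base window misses elements that lie further out.

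Heat shock proteins and their co-chaperones showed the same sign. A positive interaction was called for 9 of 16 measured genes and a negative one for 0 (median 0.79). CRYAB, a small heat shock protein, changed by -0.26 ± 0.19 with erastin (adjusted p = 0.493) and rose by 1.86 ± 0.19 with E+T. DNAJB4 and BAG3, co-chaperones of HSP70, had interactions of 1.91 ± 0.15 (adjusted p = 2.98e-05) and 1.51 ± 0.14 (adjusted p = 6.93e-05). HSPA6, the strictly inducible HSP70, rose by 1.17 ± 0.22 with erastin and by 2.27 ± 0.22 with E+T.

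Hypoxia genes formed the list with the largest share of positive calls, 15 of 21 (median 0.67), against 1 negative call, ALDOC. NDRG1 rose from a control mean of 2.36 to 5.28 with E+T (interaction 1.88 ± 0.24, adjusted p = 0.000479). Its means in the groups without the combination, 2.36 to 2.92, were below the array medians, so the size of that change is uncertain. The glucose carrier SLC2A1 rose by 0.64 ± 0.07 with erastin and 1.67 ± 0.07 with E+T, and the peptide hormone ADM and the enolase ENO2 had interactions of 1.29 and 1.39. VEGFA rose by 1.29 ± 0.08 with erastin and by 1.67 ± 0.08 with E+T, and its interaction was not called (0.11, adjusted p = 0.648).

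**Figure D2:**
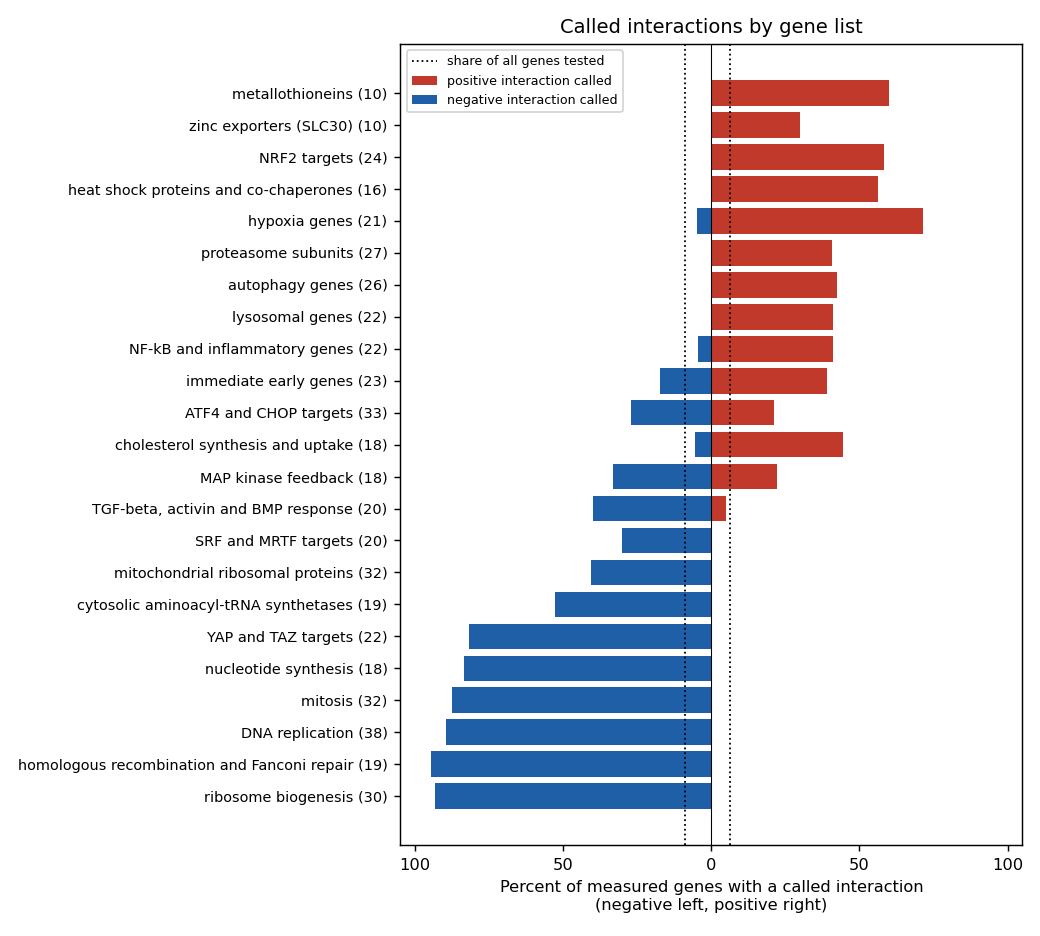
Bars give the percent of the measured genes of each list (number in parentheses) with a positive (right, red) or negative (left, blue) called interaction; dotted lines mark the same percent over all genes tested, 6.2 and 8.84. Metallothioneins, NRF2 targets, heat shock proteins and hypoxia genes extend to the right, replication, repair, mitosis and ribosome biogenesis genes to the left, and ATF4 and CHOP targets to both sides.

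Among single genes, ATF3, a stress-induced transcription factor, had values of 4.79, 4.94 and 5.09 in control, 6.07, 6.24 and 5.70 with erastin, 4.85, 4.85 and 4.48 with tubacin, and 8.53, 8.49 and 8.57 with E+T. E+T stood above every other sample by more than the whole range of those 9. The interaction was 2.74 ± 0.21 (adjusted p = 2.66e-05). PPP1R15A, the phosphatase subunit that reverses the translational block of the stress response, GDF15, a secreted stress cytokine, and KLF2, a zinc finger factor, had interactions of 1.72, 1.61 and 1.67. Of 23 immediate early genes, 9 were called positive, among them NR4A2 (1.70) and JUN (0.86), and 4 negative. DUSP1, a MAP kinase feedback gene, had an interaction of 1.30. IL6R, the receptor of interleukin 6, read 5.77, 5.73 and 5.61 in control, 6.07, 5.82 and 6.18 with erastin, 5.68, 5.81 and 5.64 with tubacin, and 8.47, 8.74 and 8.42 with E+T. All 3 E+T samples lay above the other 9, and the interaction was 2.51 ± 0.16 (adjusted p = 1.25e-05). GPR146, an orphan receptor, MAP1A, a microtubule-associated protein, LSMEM1 and the pseudogene NMRAL2P shared that pattern, with single-drug changes whose adjusted p exceeded 0.05 and interactions of 2.51, 2.47, 2.37 and 2.91. LSMEM1 and NMRAL2P were dim without the combination, with control means of 4.14 and 3.52. Both reached a group mean of 5 only with E+T, so the size of their interactions is uncertain.

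Of 13 measured pro-apoptotic BCL2 family genes, 2 had a called positive interaction (background 6.2%). BCL2L11, which encodes Bim, was at 5.18, 5.33 and 5.21 in control, 5.14, 4.98 and 5.38 with erastin, 4.96, 5.01 and 4.92 with tubacin, and 6.46, 6.51 and 6.39 with E+T. Erastin gave -0.08 ± 0.10 and tubacin -0.28 ± 0.10, neither called, and E+T raised it by 1.21 ± 0.10, an interaction of 1.56 ± 0.14 (adjusted p = 6.52e-05). The other was BNIP3L, a mitophagy receptor, with 0.77. For BBC3, which encodes Puma, E+T gave 1.70 ± 0.19 and erastin 0.57 ± 0.19, and the interaction was 0.74 ± 0.26 with adjusted p = 0.0907, past the threshold under 2 alternatives. PMAIP1, which encodes Noxa, rose by 1.11 ± 0.08 with erastin and by 1.14 ± 0.08 with E+T, and its interaction was not called (-0.24, adjusted p = 0.184). DDIT3, which encodes CHOP, rose by 2.07 ± 0.30 with E+T, and its interaction of 1.29 ± 0.43 had adjusted p = 0.0702 and was called under 5 alternatives. HDAC6, the target of tubacin, had an interaction of 0.03 ± 0.13 (adjusted p = 0.913), whereas HDAC5 rose by 2.01 ± 0.08 with E+T (interaction 1.77 ± 0.11, adjusted p = 1.25e-05). HDAC5 was 1 of 2 genes with a called interaction among 10 histone deacetylases, against 15% of all genes. The median interaction of these 10 genes was 0.04.

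Smaller shifts of the same sign were called for 11 of 27 proteasome subunits (median 0.34), 11 of 26 autophagy genes (median 0.29) and 9 of 22 lysosomal genes (median 0.34). In the proteasome list 8 genes fell with erastin alone (background 4.41%) and 7 rose with E+T (background 14%). The count of proteasome calls moved between 7 and 17 with the scaling and the dim filter. GABARAPL1, an autophagosome protein, had the largest interaction of these lists, 2.03 ± 0.27 (adjusted p = 0.000572).

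The lists with the largest shares of greater than additive falls were those of cell growth and division. Of 38 DNA replication genes, 34 had a called negative interaction and 0 a positive one (background 8.84% and 6.2%), and the median was -0.88. Erastin alone called 6 of the 38 lower and 1 higher, tubacin 0, and E+T 37 lower, against 17.1% of all genes called lower with E+T. UHRF1, which recruits the maintenance methyltransferase to replicated DNA, read 8.68, 8.96 and 8.89 in control, 8.72, 8.73 and 8.80 with erastin, 8.86, 8.93 and 8.80 with tubacin, and 6.89, 6.90 and 6.91 with E+T. The 9 samples without the combination overlapped and the E+T samples lay below all of them. E+T lowered UHRF1 to a level 3.84-fold below control, and its interaction was -1.87 ± 0.12 (adjusted p = 1.02e-05). MCM10, GINS2, CDC6, FEN1 and the clamp PCNA had interactions of -1.56, -1.57, -1.46, -1.47 and -1.04. MCM6, a subunit of the replicative helicase, was raised by erastin (0.30 ± 0.08) and lowered by E+T (-1.05 ± 0.08), at 9.56, 9.71 and 9.72 in control, 10.03, 10.01 and 9.85 with erastin, 9.71, 9.70 and 9.73 with tubacin, and 8.61, 8.56 and 8.67 with E+T.

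E2F factors drive many of these genes at the start of S phase. The 250 bases before MCM6 are shown because they hold 4 matches to TTTNNCGC, 2 on each strand (capitals). Matches on opposite strands overlap and are merged in the print.
MCM6, chr2:135876444-135876693, minus strand, GRCh38.p14: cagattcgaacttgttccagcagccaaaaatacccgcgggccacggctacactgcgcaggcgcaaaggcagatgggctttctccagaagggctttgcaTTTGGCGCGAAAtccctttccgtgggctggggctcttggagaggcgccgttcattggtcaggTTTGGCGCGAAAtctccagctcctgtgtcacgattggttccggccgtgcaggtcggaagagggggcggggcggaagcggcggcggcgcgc
A match was present in 15 of 33 replication promoters that the RefSeq table holds and in 5.93% of all promoters. Among all greater than additive falls the share was 12% of 1265 promoters, and among greater than additive rises 7.69% of 845.

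The same sign held for 18 of 19 genes of homologous recombination and Fanconi repair (median -0.89) and 15 of 18 genes of nucleotide synthesis (median -0.73). CTPS1, which makes CTP, PPAT, the first enzyme of purine synthesis, and DHODH, of pyrimidine synthesis, had interactions of -1.31, -1.15 and -1.18. In TYMS, the thymidylate synthase, erastin alone gave -0.68 ± 0.06 and E+T -1.84 ± 0.06 (interaction -0.81). Mitotic genes differed from the replication genes in their single response. All 32 measured genes fell with erastin alone (background 4.41%), with a median of -0.57, and 28 of them had a called negative interaction, so that E+T took the median to -1.35. KIF20A, a kinesin of cytokinesis, fell by 1.08 ± 0.11 with erastin and by 2.05 ± 0.11 with E+T. CDC25C, the phosphatase that starts mitosis, was 1 of the 4 mitotic genes with no called interaction (-0.09, adjusted p = 0.688).

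Ribosome biogenesis showed no fall with erastin, which called 4 of 30 genes higher and 0 lower. With E+T 28 of the 30 fell (17.1% of all genes) and 28 had a called negative interaction (median -0.86). POLR1E, a subunit of RNA polymerase I, was at 7.32, 7.17 and 7.13 in control, 7.32, 7.26 and 7.33 with erastin, 7.31, 7.46 and 7.22 with tubacin, and 5.70, 5.83 and 5.96 with E+T. E+T lay below all other samples, and the interaction was -1.60 ± 0.13 (adjusted p = 4.14e-05). RRS1 and LYAR, ribosome assembly factors, had interactions of -1.91 and -1.50. POLR1B, DDX21 and NIP7 were reversals, raised by erastin by 0.32 ± 0.08, 0.25 ± 0.07 and 0.33 ± 0.08 and lowered by E+T by 0.93 ± 0.08, 0.58 ± 0.07 and 0.71 ± 0.08. Cytosolic ribosomal protein genes had 1 positive and 1 negative call among 23. Mitochondrial ribosomal protein genes had 13 negative calls of 32 (median -0.29), 8 after scaling to the reference genes. Of the cytosolic aminoacyl-tRNA synthetases, which rose with erastin in 11 of 19 cases (background 3.94%), 10 had a called negative interaction, but scaling to the reference genes left 1.

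Among the 8 falls with the largest interaction, only RRS1 belonged to these lists of growth genes. PGM5-AS1, an antisense RNA, fell by 2.31 ± 0.14 with E+T (interaction -2.53 ± 0.20, adjusted p = 3.4e-05). FJX1, a secreted kinase-like protein, GRPR, the receptor of gastrin-releasing peptide, STEAP4, a metalloreductase, AUNIP, a DNA end resection factor, and AARD followed with -2.31, -2.18, -1.89, -1.98 and -1.97. AJUBA, a LIM protein that restrains the Hippo kinases, read 7.03, 6.89 and 6.65 in control, 6.84, 7.07 and 6.95 with erastin, 6.70, 6.96 and 6.81 with tubacin, and 4.86, 4.75 and 4.58 with E+T. The single-drug samples overlapped the controls, E+T lay below all of them, and the interaction was -2.18 ± 0.17 (adjusted p = 2.76e-05).

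**Figure D3:**
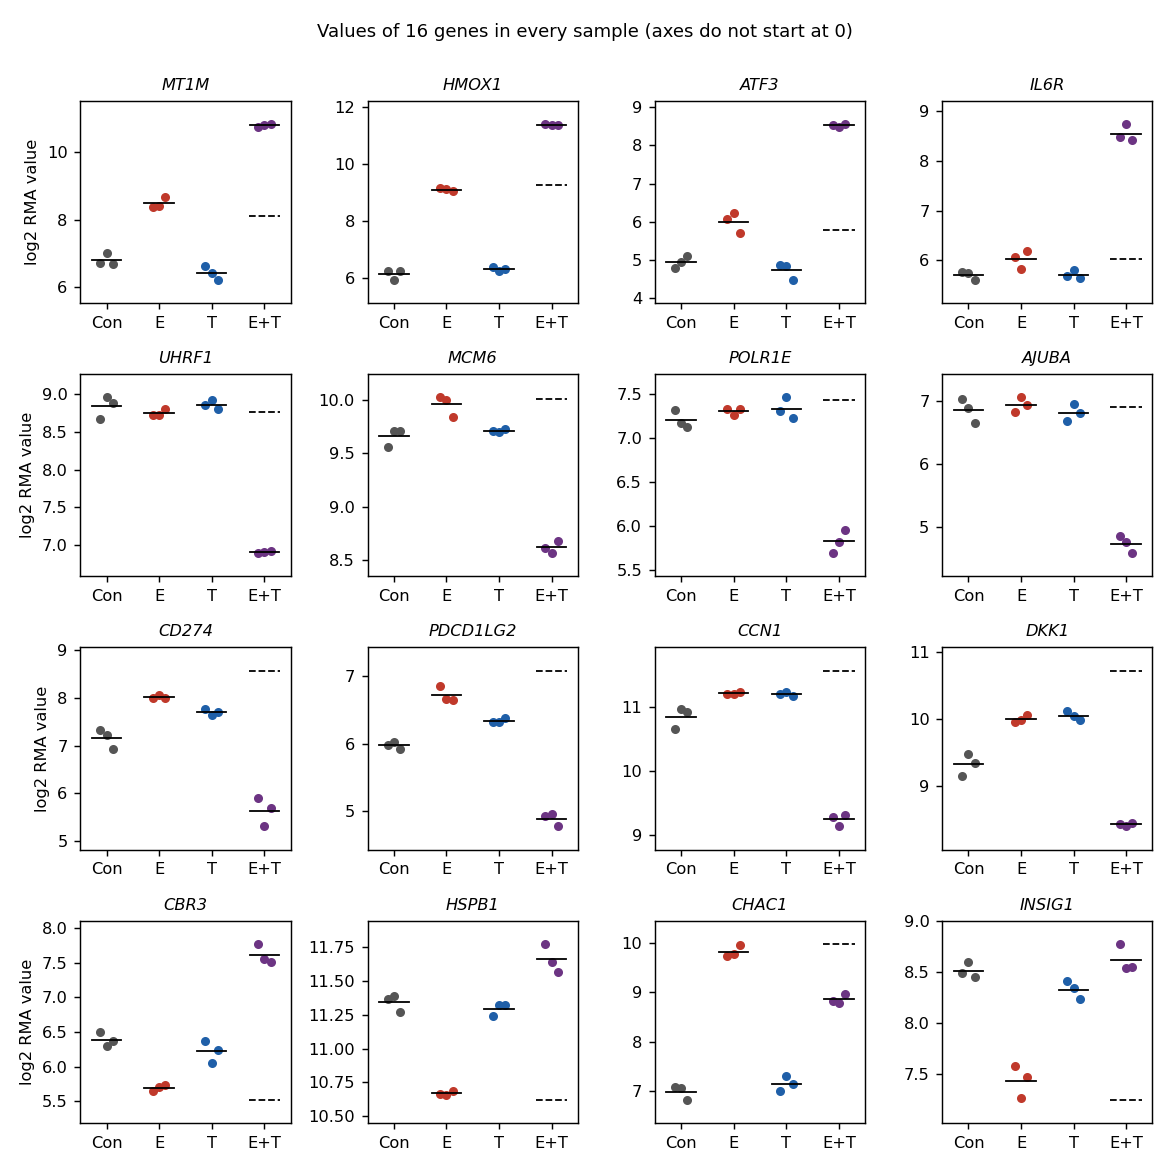
Log2 RMA values of 16 genes in all 12 samples (Con, control; E, erastin; T, tubacin; E+T, both); points are samples, solid lines group means and the dashed line the E+T value that adding the single changes would give. The E+T samples of MT1M and HMOX1 lie above the dashed line, those of UHRF1 and POLR1E below it, and those of CD274 and DKK1 below both the dashed line and the controls; y axes do not start at 0.

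The largest reversal was that of CD274, which encodes PD-L1. Its values were 7.32, 7.21 and 6.92 in control, 7.99, 8.07 and 8.0 with erastin, 7.77, 7.64 and 7.71 with tubacin, and 5.89, 5.30 and 5.70 with E+T. The erastin and the tubacin samples all lay above the controls and the E+T samples all below them. Erastin raised CD274 by 0.87 ± 0.14 (adjusted p = 0.00458), tubacin gave 0.56 ± 0.14 (adjusted p = 0.204), E+T changed it by -1.52 ± 0.14, and the interaction was -2.95 ± 0.20 (adjusted p = 1.76e-05). PDCD1LG2, which encodes PD-L2, the other ligand of PD-1, and lies beside CD274 on chromosome 9, read 5.98, 6.03 and 5.93 in control, 6.86, 6.66 and 6.65 with erastin, 6.32, 6.33 and 6.38 with tubacin, and 4.91, 4.95 and 4.77 with E+T. The order of the groups was that of CD274, again without overlap. Its interaction was -2.21 ± 0.11 (adjusted p = 9.9e-06). When erastin was added to tubacin, CD274 changed by -2.08 ± 0.14 and PDCD1LG2 by -1.46 ± 0.08. In the list of antigen presentation and checkpoint ligand genes, 4 of 21 were called negative and 4 positive (median 0.12).

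CCN1 and CCN2, secreted matricellular proteins and standard YAP and TAZ targets, were the second pair. CCN1 was at 10.66, 10.97 and 10.93 in control, 11.20, 11.21 and 11.24 with erastin, 11.21, 11.24 and 11.18 with tubacin, and 9.28, 9.13 and 9.31 with E+T. Both single drugs stood above control and E+T below it, though the tubacin change of 0.36 ± 0.09 was not called (adjusted p = 0.183). The interaction was -2.33 ± 0.13 (adjusted p = 9.9e-06). CCN2 changed by 0.58 ± 0.09 with erastin, 0.31 ± 0.09 with tubacin (adjusted p = 0.249) and -1.19 ± 0.09 with E+T, an interaction of -2.08 ± 0.13 (adjusted p = 9.9e-06). Of 22 YAP and TAZ targets, 18 had a called negative interaction and 0 a positive one (median -0.65), and scaling to the reference genes left 11. ANKRD1 (-1.32) and GADD45B (-1.16) were further reversals, and AMOTL2 (-1.81) was a greater than additive fall. TEAD factors carry YAP to DNA and bind GGAATG, and the 250 bases before CCN2 are shown because they hold 3 matches (capitals), all on the strand of the gene.
CCN2, chr6:131951373-131951622, minus strand, GRCh38.p14: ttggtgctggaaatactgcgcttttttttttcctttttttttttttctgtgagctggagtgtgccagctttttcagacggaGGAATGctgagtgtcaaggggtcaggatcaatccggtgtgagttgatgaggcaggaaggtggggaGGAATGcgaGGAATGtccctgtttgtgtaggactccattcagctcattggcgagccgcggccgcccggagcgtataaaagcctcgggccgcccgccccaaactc
At least 3 matches were found in 0.0952% of all promoters and at least 1 in 11.9%. Of 17 list promoters available 6 held 1 or more, ANKRD1 with 2 among them, and 10.8% of the promoters of greater than additive falls did.

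DKK1, an inhibitor of Wnt signalling, was raised by either drug and lowered by both, at 9.15, 9.48 and 9.34 in control, 9.95, 9.98 and 10.06 with erastin, 10.12, 10.04 and 9.99 with tubacin, and 8.44, 8.40 and 8.45 with E+T. It was 1 of the 24 genes that tubacin alone raised (0.72 ± 0.09, adjusted p = 0.00905), and its interaction was -2.29 ± 0.12 (adjusted p = 9.9e-06). FST, which traps activin, was a reversal of the tubacin response. Tubacin raised it by 1.05 ± 0.10, erastin changed it by 0.11 ± 0.10 (adjusted p = 0.596) and E+T lowered it by 0.95 ± 0.10, an interaction of -2.12 ± 0.15 (adjusted p = 1.76e-05). NOG, which traps BMPs, rose by 0.94 ± 0.13 with erastin and fell by 0.42 ± 0.13 with E+T. In the list of TGF-beta, activin and BMP response genes, 8 of 20 were called negative and 1 positive (median -0.31). The anti-apoptotic BCL2 read 5.79, 5.84 and 5.93 in control, 6.36, 6.43 and 6.28 with erastin, 5.62, 5.59 and 5.78 with tubacin, and 4.68, 4.73 and 4.77 with E+T. Erastin raised it, E+T lowered it below all other samples, and the interaction was -1.44 ± 0.11 (adjusted p = 2.66e-05). It was the only called gene among 5 measured anti-apoptotic family members. HAS2, a hyaluronan synthase, GATA3, a luminal factor, and CCND1, cyclin D1, rose with erastin by 0.79 ± 0.08, 0.79 ± 0.09 and 0.25 ± 0.06 and fell with E+T by 0.64 ± 0.08, 0.33 ± 0.09 and 0.57 ± 0.06.

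Among the reversals to a rise, CBR3, a carbonyl reductase, read 6.51, 6.30 and 6.37 in control, 5.64, 5.70 and 5.73 with erastin, 6.37, 6.06 and 6.24 with tubacin, and 7.78, 7.56 and 7.51 with E+T. Erastin samples lay below control and E+T samples above it, and the interaction was 2.09 ± 0.14 (adjusted p = 1.74e-05). ABHD3, a phospholipase, NDRG4, the kinase MAST1 and LPAR3, a receptor of lysophosphatidic acid, fell with erastin by 0.40 ± 0.08, 0.46 ± 0.09, 0.59 ± 0.12 and 0.52 ± 0.14 and rose with E+T by 1.41 ± 0.08, 1.30 ± 0.09, 1.05 ± 0.12 and 0.81 ± 0.14. PDGFRB, a receptor kinase that also marks fibroblasts, had group means of 4.40, 3.68, 3.73 and 5.25 in the order control, erastin, tubacin and E+T, an interaction of 2.24 ± 0.27 (adjusted p = 0.00038). It was the 1 called gene of 5 fibroblast markers, and the summed linear level of the 5 was 700.0 to 840.0 in control, 491 to 544 with erastin, 558 to 733 with tubacin and 448 to 505 with E+T. Members of the stress lists were also reversed. GSR, glutathione reductase, fell by 0.32 ± 0.08 with erastin and rose by 0.34 ± 0.08 with E+T. HSPB1, the small heat shock protein HSP27, read 11.37, 11.39 and 11.27 in control, 10.67, 10.66 and 10.69 with erastin, 11.24, 11.32 and 11.32 with tubacin, and 11.77, 11.64 and 11.56 with E+T. All 3 erastin samples lay below the other 9 and all 3 E+T samples above them (interaction 1.03 ± 0.10, adjusted p = 0.000128). EGF, a growth factor, had an interaction of 1.35.

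Some feedback inhibitors and early targets of MAP kinase signalling were antagonised, 5 of 18 MAP kinase feedback genes and 4 of 23 immediate early genes, while 9 of the latter were greater than additive rises. Of all 22392 genes tested, 319 were antagonised and 1044 were greater than additive rises. SPRY2, an inhibitor of receptor kinase signalling, read 6.93, 7.35 and 7.06 in control, 8.24, 8.24 and 8.20 with erastin, 7.78, 7.62 and 7.53 with tubacin, and 7.50, 7.34 and 7.38 with E+T. Erastin and tubacin samples lay above control, whereas the E+T samples overlapped the control range and lay below the single drugs. Erastin raised SPRY2 by 1.11 ± 0.11 and the interaction was -1.35 ± 0.16 (adjusted p = 0.00027). DUSP6, a phosphatase of ERK, rose by 0.91 ± 0.08 with erastin and gave -0.11 ± 0.08 with E+T. EGR1 was at 8.68, 8.77 and 8.91 in control, 9.20, 9.22 and 9.31 with erastin, 9.19, 9.37 and 9.27 with tubacin, and 8.65, 8.57 and 8.65 with E+T. Erastin and tubacin each raised it (by 0.46 ± 0.08 and 0.49 ± 0.08), the E+T samples lay just below those of control, and the interaction was -1.11 ± 0.11 (adjusted p = 0.000145). FOSL1, MYC, IER2 and the cytokine LIF had interactions of -0.98, -0.75, -0.67 and -0.91. Of 18 MAP kinase feedback genes, 6 were negative and 4 positive, DUSP1 among the latter, so the list as a whole had no single direction (median -0.07).

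By rule, the antagonised rises with the largest interaction were ESM1, a secreted proteoglycan of endothelial cells, MIG7, BRINP2 and SMKR1, with -1.92 ± 0.25 (adjusted p = 0.000493), -1.75 ± 0.14 (adjusted p = 3.17e-05), -1.53 ± 0.23 (adjusted p = 0.00122) and -1.42 ± 0.20 (adjusted p = 0.000797). ESM1 fell when erastin was added to tubacin (-0.74 ± 0.17, adjusted p = 0.00752), and MIG7 likewise (-1.06 ± 0.10). IL7R, the interleukin 7 receptor, was high with tubacin alone. Tubacin raised it by 1.22 ± 0.13 and E+T gave -0.26 ± 0.13, at 6.09, 6.09 and 6.26 in control, 6.11, 5.92 and 5.63 with erastin, 7.15, 7.54 and 7.42 with tubacin, and 5.78, 5.98 and 5.90 with E+T. The tubacin samples lay above all others, and the E+T samples overlapped those of erastin. Of the 24 genes that rose with tubacin alone 16 had a called opposing interaction, and of the 28 that fell 11 did. These counts share samples with the tubacin response. In E+T against erastin, which uses separate samples, 8 of the 24 rose again, 9 fell and 7 were not called. Of the 28, 18 fell again, 4 rose and 6 were not called. Across all genes, adding tubacin to erastin called 11.2% upward and 14.6% downward.

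ATF4 and CHOP targets split into opposite directions. Erastin alone raised 28 of 33 measured targets (background 3.94%), with a median of 1.07, and E+T raised 29 (background 14%) with a median of 1.06, yet 7 had a called positive and 9 a called negative interaction. The positive 7 were ATF3, PPP1R15A, GDF15, DDIT4, SLC7A5, SLC7A11 and SESN2. The negative 9 were PSPH, PSAT1, SHMT2, CBS, ASNS, SLC1A5, ALDH1L2, CHAC1 and the hormone STC2. Amino acid carriers stood on both sides, and CTH, PHGDH and MTHFD2 were not called. CHAC1, which degrades glutathione, read 7.08, 7.05 and 6.83 in control, 9.74, 9.77 and 9.96 with erastin, 6.99, 7.30 and 7.14 with tubacin, and 8.83, 8.78 and 8.96 with E+T. E+T stayed above control and tubacin and below erastin alone, and the interaction was -1.13 ± 0.15 (adjusted p = 0.000695). PSPH, the last enzyme of serine synthesis, read 7.67, 7.79 and 7.76 in control, 8.80, 8.74 and 8.74 with erastin, 7.68, 7.61 and 7.80 with tubacin, and 7.55, 7.40 and 7.57 with E+T. It rose by 1.02 ± 0.08 with erastin and fell by 0.24 ± 0.08 with E+T (interaction -1.21 ± 0.11, adjusted p = 7.12e-05). STC2 and CBS had interactions of -0.77 ± 0.12 (adjusted p = 0.00203) and -0.92 ± 0.21 (adjusted p = 0.0139). Those of ASNS (-0.34), SHMT2 (-0.42) and ALDH1L2 (-0.38) lost their call under 17, 15 and 14 of the alternatives. Among the positive 7, SESN2 (0.33) lost its call under 11. Scaling to the reference genes left 5 positive and 4 negative calls in the list.

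**Figure D4:**
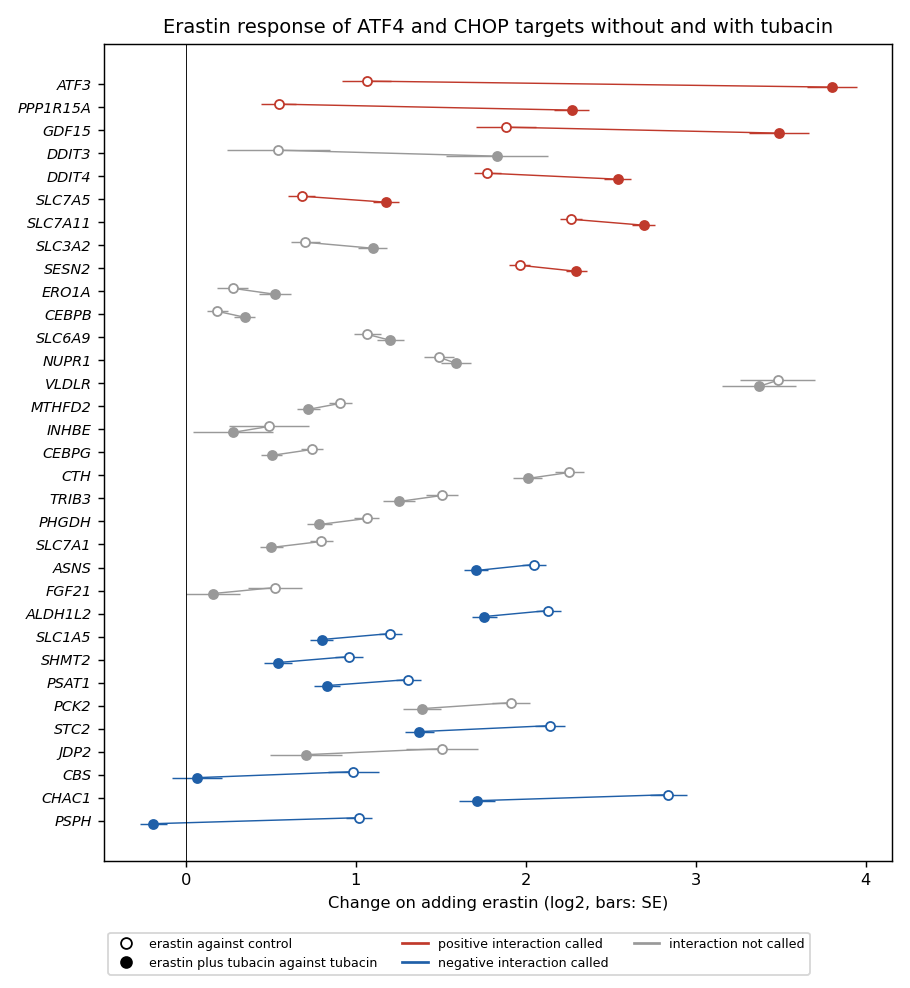
For each of 33 ATF4 and CHOP targets, the open circle is the change with erastin against control and the filled circle the change on adding erastin to tubacin (log2, bars are SE), which use separate samples; red marks the 7 positive, blue the 9 negative called interactions. ATF3 moves from 1.06 to 3.80 and PSPH from 1.02 to -0.19.

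The element that ATF4 binds with C/EBP partners is shown for CHAC1, whose E+T change fell short of its erastin change. The match to TGATGNAA (capitals) lies on the strand opposite to the gene.
CHAC1, chr15:40953221-40953470, plus strand, GRCh38.p14: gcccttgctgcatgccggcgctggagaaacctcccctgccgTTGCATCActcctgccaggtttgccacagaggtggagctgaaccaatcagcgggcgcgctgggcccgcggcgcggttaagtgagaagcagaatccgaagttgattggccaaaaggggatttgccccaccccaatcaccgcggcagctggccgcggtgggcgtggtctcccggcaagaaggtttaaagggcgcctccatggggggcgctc
The string was in 4 of 27 list promoters available and in 3.19% of all promoters. ATF3, with an interaction of the opposite sign, also held 1 match. Among the promoters of all antagonised rises the share was 8.57% of 140.

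Antagonised falls included sterol genes and receptors. INSIG1, which holds back sterol synthesis and is itself a target of SREBP2, read 8.50, 8.60 and 8.45 in control, 7.58, 7.26 and 7.47 with erastin, 8.41, 8.34 and 8.23 with tubacin, and 8.78, 8.54 and 8.55 with E+T. The erastin samples lay below all others, and the E+T samples overlapped control. Its interaction was 1.37 ± 0.14 (adjusted p = 0.00016). Of 18 measured genes of cholesterol synthesis and uptake, 12 fell with erastin alone (background 4.41%). A positive interaction was called for 8 and a negative one for 1 (background 6.2% and 8.84%). With E+T 8 of the 18 were called lower than control and 3 higher (background 17.1% and 14%). Their median change was -0.44 with erastin and -0.26 with E+T. HMGCS1 was reversed to a rise (interaction 0.89), and MVD, IDI1, MSMO1, STARD4 and LSS lay closer to control with E+T than with erastin, with interactions of 0.63, 0.64, 0.41, 0.58 and 0.38. The last of these was lost under 14 alternatives. PLEKHG1, NRG4, an ERBB4 ligand, CXCR4, a chemokine receptor, and EPHB3, an ephrin receptor, had the largest interactions of the class, at 1.66 ± 0.26 (adjusted p = 0.00181), 1.60 ± 0.34 (adjusted p = 0.00966), 1.47 ± 0.26 (adjusted p = 0.00326) and 1.39 ± 0.15 (adjusted p = 0.000195). The basal keratin KRT5 gave -0.96 ± 0.24 with erastin, -0.99 ± 0.24 with tubacin (adjusted p = 0.176) and -0.63 ± 0.24 with E+T, and its interaction (1.32, adjusted p = 0.0259) was lost under 9 alternatives.

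On the linear scale, where an interaction of 0 means that the 2 changes add as amounts and not as folds, the group means gave the same sign as on the log2 scale for 3367 of the 3369 called genes. Another reference, the response beyond both single drugs, was passed by 4413 genes, for which E+T was called in the same direction against erastin and against tubacin, 1875 higher and 2538 lower. Of these, 2833 also had a called interaction of that sign.

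Of the reference genes chosen for scaling 5 were measured, and 1 of them, GAPDH, had a called interaction (0.43). ACTB fell by 1.19 ± 0.21 with E+T, and its interaction was -0.91 ± 0.30 with adjusted p = 0.0693. Scaling to these genes moved the median interaction of all genes from 0.00 to 0.08. The part of their own response in the counts after scaling was not tested.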

How the data were processed

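RNA of HCC38 cells from 12 samples was hybridised to Human Gene 2.1 ST arrays. Per the labels and the study's methods, the authors normalized probe intensities by RMA and deposited 1 table of log2 values. The RMA version and the genome build are not given in the sources used here. All 12 columns were mapped to samples by title, and 0 sample columns were left unused. Of 53617 probe sets, 23866 carry exactly 1 gene symbol in the annotation used, 1852 carry several and 27899 have no gene there. The 22560 that matched RefSeq by Entrez ID kept their symbols, and 0 were updated. For the 630 genes with more than 1 probe set, the brightest by overall mean stood for the gene, which gave 22392 genes. No filter on dim genes was applied.

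One limma model (limma 3.58.1, R 4.3.3) held the 4 group means with eBayes moderation. The interaction and the single-drug and combination contrasts were taken from it, and p-values were adjusted by Benjamini-Hochberg over all genes of a contrast, with a threshold of 0.05. A called interaction was classed by the called single-drug and E+T changes. Genes named by rule had the largest interaction of a class among genes whose highest group mean was at least 5, 8 for each additive class, 6 for each reversal and 4 for each antagonism. Other named genes are list members or genes that the study names, chosen with their values known. The rule, the lists and the alternatives were chosen with earlier results of these data known. The scripts were tested on simulated data. Of 987 list genes, 877 were measured. The number of arrays limits the precision, and the median SE of an interaction was 0.19.

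Promoters are RefSeq windows of GRCh38.p14, cut to the 250 bases before 1 start per gene, available for 15487 tested genes. Motifs were searched on both strands with overlaps counted.

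Alternatives were a filter on dim genes, every probe set, averaging of probe sets per gene, renewed quantile or loess normalization, scaling to reference genes, other moderation, the linear scale, the replicate number as a block, a threshold of 0.01, the methods' t-test and leaving out each sample.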

Additional observations from a re-analysis of the deposited data

Results flagged for a closer look

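The erastin change differed with and without tubacin for 3369 genes, by limma's test of the difference at an adjusted p under 0.05. The reversals with the largest interactions, the 12 named by rule, were CD274 (-2.95), CCN1 (-2.33), DKK1 (-2.29), PDCD1LG2 (-2.21), FST (-2.12) and CCN2 (-2.08) among the falls, and PDGFRB (2.24), CBR3 (2.09), ABHD3 (1.92), NDRG4 (1.73), MAST1 (1.71) and LPAR3 (1.68) among the rises, each value being the interaction on the log2 scale. Probe sets that no comparison above used also carried interactions. In a fit of all 53617 probe sets, an interaction was called for 473 of 27899 with no gene in the annotation (1.70%) and for 118 of 1852 with several symbols (6.37%), against 2202 of 23866 with 1 symbol (9.23%).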

How the results depend on the processing

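Of 157 genes followed, 125 kept their direction and call under those of the 23 alternatives that tested them, 32 changed call and 0 reversed. The filter on dim genes removed some of the 157, MT1H, NMRAL2P and NDRG1 among them, which were not tested there. The main counts were 3369 interactions, 1044 greater than additive rises, 1510 falls, 122 reversals, 319 antagonisms, and 1869 genes called with erastin and 52 with tubacin. A filter at a mean of 5 gave 303 reversals, 504 antagonisms and 205 tubacin genes, and every probe set 50, 199 and 22. Scaling to 5 reference genes gave 2137 interactions, 764 falls, 33 reversals, 131 antagonisms, 880 erastin genes and 22 tubacin genes. Trend and robust moderation gave 236 reversals and 211 tubacin genes, no moderation 203 and 84, and the linear scale 184 and 113. A threshold of 0.01 gave 1808 interactions, 586 rises, 899 falls, 32 reversals, 106 antagonisms, 773 erastin genes and 18 tubacin genes. The methods' t-test called 4217 genes with erastin and 2011 with tubacin unadjusted, and 635 and 0 after Benjamini-Hochberg adjustment. The cause of these shifts was not tested.

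Leaving out 1 sample gave 2665 to 3183 interactions, 845 to 979 rises, 1235 to 1416 falls, 51 to 107 reversals, 192 to 279 antagonisms, 1065 to 1762 erastin genes, 15 to 41 tubacin genes and 6083 to 6782 E+T genes. Without an erastin sample, erastin genes numbered 1197, 1065 and 1072, antagonisms 207, 198 and 192, and reversals 67, 51 and 62. Without a control sample reversals numbered 74, 65 and 65. Tubacin genes numbered 15, 18 and 22 without a tubacin sample, 26 and 33 without control 2 or 3, 29 and 34 without erastin 2 or 3, and 33 and 34 without E+T 2 or 3. With the replicate number as a block, 2968 interactions (2830 shared), 77 reversals and 23 tubacin genes were called. Deviations of samples with the same number correlated between -0.061 and 0.047, and 1 of 12 samples correlated best with its own number.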

Other observations

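NF-kB and inflammatory genes had 9 positive calls and 1 negative among 22 measured (median 0.55, background 6.2% and 8.84%). ICAM1, an adhesion molecule, rose by 1.09 with E+T and had an interaction of 1.32 (adjusted p = 0.00362), and NFKBIZ, a nuclear partner of NF-kB, had 1.32. The chemokine CXCL2 had 1.64, a call lost under 12 of the alternatives. Glycolysis genes had 6 positive calls and 1 negative among 17 (median 0.24), and ER chaperones and degradation genes 4 and 0 among 24 (median 0.05). Epithelial genes had 7 positive and 2 negative calls among 24, with 4 positive after scaling to the reference genes, and mesenchymal genes had 1 and 4 among 18.

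The ferroptosis and glutathione list had 6 positive and 5 negative calls among 26, with a median of 0.00. SRF and MRTF targets had 6 negative calls and 0 positive among 20 (median -0.39), with 3 after scaling to the reference genes and 10 under the filter on dim genes. Respiratory chain and ATP synthase genes had 3 negative calls among 32, near the background of 8.84%, with 0 after that scaling and 9 under the filter on dim genes. Interferon-stimulated genes had 3 positive and 2 negative calls among 27, Notch pathway genes 3 and 0 among 22, clock genes 3 and 0 among 17, p53 targets 4 and 2 among 18 (2 and 1 after that scaling), receptor tyrosine kinases and EGF family ligands 3 and 6 among 21, and tubulins 1 and 2 among 14. Of all genes tested, 6.2% were called positive and 8.84% negative, and whether the lists just named differed from these shares was not tested. Among 8 protein kinase C genes limma called 0 interactions, 0 had an unadjusted p under 0.05, and the values ran from -0.21 to 0.54.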
